A study of Homo sapiens with 8 samples.

Results

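MALAT1, NEAT1 and KCNQ1OT1 are long non-coding RNAs that stay in the nucleus, away from cytoplasmic ribosomes, and they were taken here by name as an untranslated reference for the ratio of ribosome footprints to input RNA. All 3 were found among the 26902 genes and RNAs of the deposited table. The cells were U2OS, an established human osteosarcoma line, carrying an empty vector or overexpressing QKI7, made from the QKI gene, which encodes a protein that binds RNA. Neither the promoter of the construct nor whether the cells are a clone is stated in the labels. Every group, controls included, had received 0.5 mM NaAsO2 (sodium arsenite, an oxidative stress agent) for 1 h, so nothing here bears on arsenite itself. Each construct gave 2 libraries of total input RNA after removal of ribosomal RNA and 2 libraries of footprints, RNA fragments of 17 to 34 nt recovered from pelleted ribosomes. This makes 4 groups with n = 2 each. Since nothing in the labels tells whether paired libraries are separate cultures, the spread behind each p-value is that between libraries and may be technical.

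MALAT1 is among the most abundant nuclear RNAs of mammalian cells and collects in nuclear speckles, the storage sites of splicing factors. NEAT1 is the architectural RNA of paraspeckles, nuclear bodies that hold proteins and edited RNAs and that respond to stress. The 3′ ends of MALAT1 and of the long NEAT1 isoform are cut by RNase P and protected by a triple helix in place of a poly(A) tail. KCNQ1OT1 is transcribed from an imprinted locus, antisense to the potassium channel gene KCNQ1, and silences neighbouring genes in cis. None of these RNAs is known for coding a protein.

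All 3 genes lie on chromosome 11 (GRCh38.p14, RefSeq). MALAT1 (Entrez gene 378938) spans 65497738 to 65506516, NEAT1 (283131) spans 65422798 to 65445540 and KCNQ1OT1 (10984) spans 2608328 to 2699994, which makes them 8779, 22743 and 91667 bases long. MALAT1 overlaps its antisense RNA TALAM1 and the small cytoplasmic RNA MASCRNA that is cut from its 3′ end, NEAT1 contains the microRNA gene MIR612, and KCNQ1OT1 lies within the span of KCNQ1. No source used here states strand-aware counting, so reads of a gene and of its antisense partner cannot be told apart. KCNQ1 itself was listed at 0 to 0.01 TPM in each library. MIR612 was at 0 in all 4 inputs and at 0.18, 0, 0 and 0.08 TPM in the footprint libraries.

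RefSeq lists 2 start sites of MALAT1 with a promoter window of 250 bases before to 50 bases after the start, printed because MALAT1 carries most of the signal described here and the table has 1 entry for the gene. NEAT1 and KCNQ1OT1 had no promoter entry. The windows were searched on both strands for TATAAA, the TATA box core, and ACTAAC, the core of the RNA element that QKI binds; capitals mark matches.
MALAT1 upstream start (chr11:65497488-65497787, plus strand): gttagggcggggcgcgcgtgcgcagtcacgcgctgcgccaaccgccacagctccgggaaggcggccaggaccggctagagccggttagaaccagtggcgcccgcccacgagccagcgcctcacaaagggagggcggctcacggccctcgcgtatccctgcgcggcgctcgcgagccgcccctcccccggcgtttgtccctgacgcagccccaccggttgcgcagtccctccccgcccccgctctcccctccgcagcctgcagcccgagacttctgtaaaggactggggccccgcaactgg
MALAT1 downstream start (chr11:65498795-65499094, plus strand): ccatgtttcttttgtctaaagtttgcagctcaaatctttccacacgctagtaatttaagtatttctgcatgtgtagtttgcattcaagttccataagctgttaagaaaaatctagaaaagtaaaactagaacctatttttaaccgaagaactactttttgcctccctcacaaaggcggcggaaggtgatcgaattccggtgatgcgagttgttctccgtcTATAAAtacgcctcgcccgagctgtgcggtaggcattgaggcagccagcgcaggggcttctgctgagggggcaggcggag
The upstream window holds 73.7% G and C, above the median of 58.7% over 35116 promoter windows, and neither motif. The downstream window holds 46.0% G and C and TATAAA at position -30 from the start, a motif found on either strand in 11.5% of the windows. ACTAAC was found on either strand in 5.01% of windows and in neither of these. Only 50 bases of each window lie after its own start, and a minus-strand match would not be in the RNA. The ACTAAC search was therefore no test of QKI binding to MALAT1. The deposited values do not separate the starts, and a window says nothing of the rest of the transcript.

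The table gives TPM, a length-corrected level scaled to the same total in each library, over all RNA classes, so levels can be compared between genes. Depth is lost in TPM, the reads behind each value are unknown, and values have 2 decimals. Long RNAs (mRNAs, long non-coding RNAs and pseudogene transcripts) took 4.02% to 4.93% of TPM in inputs and 0.691% to 0.707% in footprints, the rest being led by 7SL and U1 RNA in inputs and by ribosomal RNA in footprints. Tests were therefore run on a long-RNA scale, in which the 24304 long-RNA entries of each library were rescaled to 1000000. Of 11 mesenchymal and osteosarcoma markers, 7 had a mean input of at least 1 TPM, with a summed level of 142.62 to 153.87 TPM across inputs, while COL1A2 and TWIST1 were near 0; the summed blood, epithelial and neural markers were each at 0.08 to 0.59 TPM. QKI stood at 3.01 and 3.45 TPM in vector inputs and at 1748.86 and 1579.91 TPM in QKI7 inputs, in accordance with the labels.

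MALAT1 was the most abundant of all long RNAs in vector inputs and NEAT1 the next most abundant long non-coding RNA. MALAT1 stood at 553.04 and 605.24 TPM in vector inputs and at 946.63 and 851.30 TPM in QKI7 inputs. It held rank 1 of 24304 long-RNA entries in vector cells and rank 2 in QKI7 cells, where the QKI entry had the higher level. The lower QKI7 input lay above the higher vector input. An exact two-sided permutation test of 2 against 2 cannot give p under 0.333, so this order by itself shows little. NEAT1 stood at 23.99 and 26.92 TPM in vector inputs and at 37.58 and 35.91 TPM in QKI7 inputs, in the same order. It ranked 151 among all long RNAs and 2 among 3236 long non-coding RNAs in vector inputs. KCNQ1OT1 stood at 0.21 TPM in each vector input and at 0.34 and 0.32 TPM in the QKI7 inputs, rank 12939 among long RNAs in vector cells. The order of the levels was MALAT1, NEAT1, KCNQ1OT1 in each input library, with gaps far larger than the spread within a group: MALAT1 exceeded NEAT1 by 22.8-fold ± 0.403 in vector inputs and 24.4-fold ± 1.05 in QKI7 inputs (SD, n = 2 each).

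**Figure D1:**
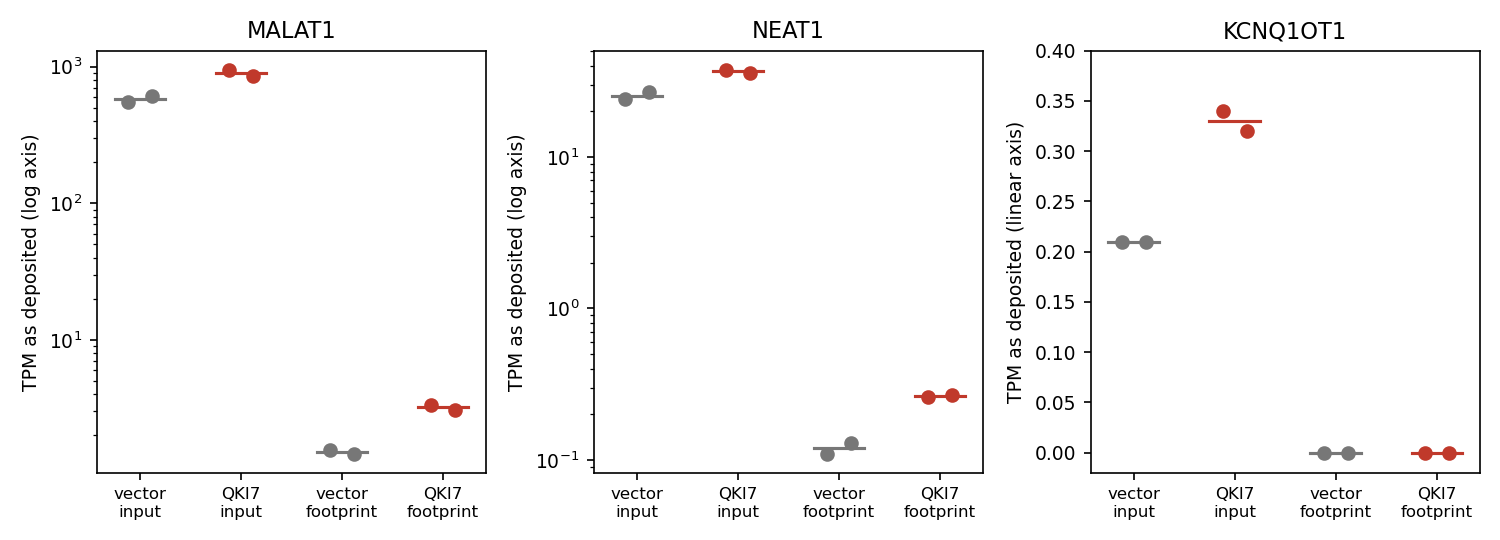
Deposited TPM of MALAT1, NEAT1 and KCNQ1OT1 in each of the 8 libraries (points) with the mean of each group (line). The axis is logarithmic for MALAT1 and NEAT1 and linear for KCNQ1OT1, whose 4 footprint values are listed at 0. Inputs lie far above footprints in each panel, and QKI7 libraries lie above vector libraries wherever values are above 0.

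These RNAs had far lower TPM in footprint libraries than in inputs. The vector footprint libraries held MALAT1 at 1.57 and 1.47 TPM, the QKI7 ones at 3.33 and 3.07 TPM. For NEAT1 the levels were 0.11 and 0.13 TPM with vector, then 0.26 and 0.27 TPM with QKI7. In each case the QKI7 libraries lay above both vector libraries, again an order of 2 against 2 that shows little by itself. KCNQ1OT1 was listed at 0 in all 4 footprint libraries; at 2 decimals such a value does not show that fragments were absent. MALAT1 fell from rank 1 among long RNAs in vector inputs to rank 582 in vector footprints, and NEAT1 from rank 151 to rank 4744. In QKI7 footprints they held ranks 260 and 2695. Among 3236 long non-coding RNAs, MALAT1 still ranked 12 in vector and 8 in QKI7 footprints. NEAT1 kept relatively more of its level than MALAT1: in footprints MALAT1 exceeded NEAT1 by 12.8-fold ± 2.10 in vector and 12.1-fold ± 1.02 in QKI7 cells (SD, n = 2 each), against 22.8-fold and 24.4-fold in inputs.

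The comparison of footprints with inputs asks how much of an RNA's level appears as ribosome-sized fragments. For untranslated nuclear RNAs it gives a reference, not a lower limit, beside which mRNAs can be read. MALAT1 fell by 6.0 on the log2 scale from input to footprint in vector cells (SE 0.0574, 95% confidence interval -6.14 to -5.86, limma adjusted p = 1.43e-07) and by 5.35 in QKI7 cells (adjusted p = 1.13e-07). NEAT1 fell by 5.09 in vector cells (SE 0.0972, adjusted p = 4.86e-07) and by 4.30 in QKI7 cells (adjusted p = 1.04e-06). The median of the 16677 entries tested was -1.60 in vector and -1.51 in QKI7 cells, so MALAT1 stood 4.40 and 3.84 below the median and NEAT1 3.49 and 2.79 below it (relative changes -4.40, -3.84, -3.49 and -2.79). The test passed for 71.9% of entries in vector cells (60.3% lower) and 69.8% in QKI7 cells (58.6% lower), so the call itself is common. By size, MALAT1 was at position 45 and NEAT1 at position 152 from the lowest in vector cells, and they were at 70 and 353 in QKI7 cells. KCNQ1OT1 reached the mean of 1 needed for testing through its inputs alone, its footprints being listed at 0. Its lower footprints were thus fixed in advance, so neither its test nor a fold is given. Adding 1 to each value before the logarithm limits the fall that such a low RNA can show.

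The same ratio without a pseudocount, against mRNAs with a mean input of at least 1 TPM, placed both RNAs near the bottom of the mRNA range. On the deposited scale the footprint level of MALAT1 was 0.284% and 0.243% of its input in the 2 vector pairs of libraries and 0.352% and 0.361% in the QKI7 pairs, pairs being formed by replicate number. For NEAT1 it was 0.459% and 0.483% in vector and 0.692% and 0.752% in QKI7 pairs. The median over 7268 such mRNAs was 4.14% in vector and 4.03% in QKI7 cells. MALAT1 therefore lay 15.8-fold below the median mRNA in vector cells and 11.3-fold below it in QKI7 cells, and NEAT1 8.78-fold and 5.59-fold below it, taken on the long-RNA scale. Of the 7268 mRNAs, 111 had a ratio at or below that of MALAT1 in vector cells and 83 in QKI7 cells, or 1.53% and 1.14%. For NEAT1 the counts were 197 and 252, or 2.71% and 3.47%. With a single pair of libraries in place of the means, the shares for MALAT1 were 2.97% and 3.0% in vector and 1.97% and 2.19% in QKI7 cells, and those for NEAT1 were 3.84% and 4.35% and 5.08% and 5.13%. Many of these mRNAs have inputs so low that a ratio like that of MALAT1 rounds to 0: the footprint of 88 mRNAs in vector and 52 in QKI7 cells was listed at 0. Among the 704 mRNAs with an input of at least 10 TPM, a background added after seeing the data, 9 were at or below MALAT1 in each construct, and 27 in vector and 47 in QKI7 cells were at or below NEAT1. Their median ratio was lower, so that MALAT1 lay 11.0-fold and NEAT1 6.13-fold below it in vector cells.

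**Figure D2:**
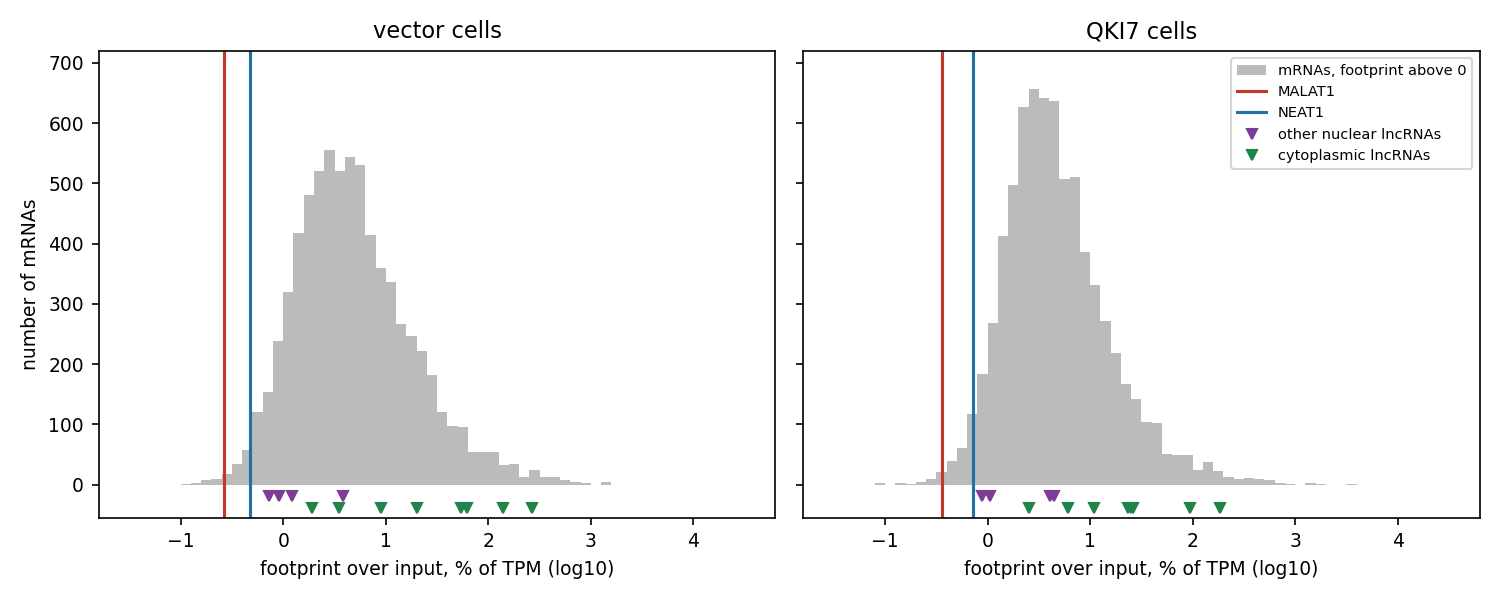
Number of mRNAs (mean input of at least 1 TPM, footprint above 0) by footprint-to-input ratio in percent of deposited TPM (log10 axis) for vector and QKI7 cells, with MALAT1 and NEAT1 as lines and the other long non-coding RNAs as triangles drawn under the axis. MALAT1 (0.262% in vector, 0.356% in QKI7 cells) and NEAT1 (0.471% and 0.721%) lie at the left edge, other nuclear long non-coding RNAs at 0.724% to 4.40%, and cytoplasmic ones at 1.92% or more.

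Other long non-coding RNAs named as nuclear had higher ratios than MALAT1 and NEAT1, within the range of mRNAs, and the ratios of cytoplasmic ones were mostly higher still. Of 11 listed nuclear long non-coding RNAs, 8 were tested and all 8 were lower in vector footprints than inputs, against 60.3% of all entries, and 6 in QKI7 cells, against 58.6%, with a median 0.85 and 0.59 below that of all entries (relative medians -0.85 and -0.59). TUG1, which takes part in gene regulation in the nucleus, went from a mean of 10.4 TPM in vector inputs to 0.0750 TPM in footprints, or 0.724% (log2 change -4.45, adjusted p = 5.25e-06). LINC-PINT and FTX, the latter from the X-inactivation centre, were at 0.903% and 1.21% (log2 changes -4.38 and -3.49, adjusted p = 0.0046 and 0.000812), and MIAT fell by 2.78 (adjusted p = 0.000126). PVT1 had the highest ratio of the 4 with inputs of at least 1 TPM, at 3.86% in vector and 4.40% in QKI7 cells, near the median mRNA. LINC-PINT footprints in vector cells were at 0 and 0.04 TPM, so its ratio rests on 1 library. MIAT was listed at 0.01 TPM in each footprint library and FTX at 0.03 and 0.02 TPM in vector footprints. These values are near the rounding of the table, so the sizes of the 2 falls are uncertain. None of the ratios in this list was as low as that of MALAT1 or NEAT1 in the same construct, although 7 of its 11 members were too low for a ratio. Of 11 cytoplasmic long non-coding RNAs, all tested, 6 were higher and 3 lower in vector footprints than inputs, with a relative median of 3.25. SNHG8, a snoRNA host transcript, and LINC00152 (CYTOR) had footprints at 268% and 140% of input (log2 changes 3.95 and 3.04, adjusted p = 3.57e-06 and 2.05e-06). NORAD, which binds PUMILIO proteins in the cytoplasm, was the lowest of those with a ratio, at 1.92% (log2 change -3.09, adjusted p = 0.000135). H19, also counted as lower, had footprints listed at 0 and entered the test through its inputs alone, so its fall was fixed in advance. Among 18 abundant mRNAs used as a translated reference, 11 were higher and 5 lower, with a median ratio of 30.2% in vector cells; GAPDH, a glycolytic enzyme, was at 295% of input, TUBA1B, a tubulin, at 471%, and the filament protein MYH9 at 1.11%. Over all entries 11.7% were higher in vector and 11.1% in QKI7 footprints.

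Among the 14 entries of class long non-coding RNA with a mean input of at least 10 TPM, MALAT1 had the fourth lowest ratio in vector cells and the third lowest in QKI7 cells, and NEAT1 the fifth lowest in each. TUG1, with mean inputs of 10.4 TPM in vector and 14.1 TPM in QKI7 cells, met the input threshold. It was not ranked because the annotation used does not hold it under the class long non-coding RNA. Its ratios were 0.724% and 0.887%. LINC01057, LOC100190986 and LINC00342 were the lower entries in vector cells, named after their values were seen, at 0%, 0.157% and 0.244%. A ratio below 1% of input was thus shared by other long non-coding RNAs that the nuclear list did not hold.

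The comparison of inputs asks whether the level of these RNAs changed with QKI7. MALAT1 was 1.55-fold, NEAT1 1.44-fold and KCNQ1OT1 1.57-fold higher in QKI7 inputs as deposited, and the long-RNA share of inputs was itself larger in QKI7 cells. On the long-RNA scale, MALAT1 rose by 0.44 on the log2 scale (SE 0.0574, 95% confidence interval 0.30 to 0.58, limma adjusted p = 0.0377), from a mean of 13872 ± 184 to 18812 ± 554 rescaled TPM (SD, n = 2 each), a direction that quantile normalization reversed. The changes of NEAT1 and KCNQ1OT1 were 0.34 (SE 0.0972, interval 0.10 to 0.57, adjusted p = 0.424) and 0.39 (SE 0.255, interval -0.23 to 1.01, adjusted p = 1.00) and did not pass. In this comparison 0.594% of entries passed, 0.546% lower and 0.048% higher. The higher ones were 8 entries, among them MALAT1 and QKI. By size of change MALAT1 was not extreme, as 88.2% of entries had a change at or below its own. For NEAT1 and KCNQ1OT1 these shares were 81.3% and 85.4%. The median of all entries was 0.07, so the changes relative to it were 0.37, 0.27 and 0.32. The MALAT1 call was narrow: it was lost in each of 8 fits that left out 1 library (adjusted p = 0.0512 to 0.371), with log2 changes of 0.41 to 0.47, and with median-of-ratios scaling (adjusted p = 0.0626). On the deposited scale, where the larger long-RNA share of QKI7 inputs adds to every long RNA, MALAT1 and NEAT1 passed with 0.63 and 0.51 (adjusted p = 0.00267 and 0.00215). There 2587 of the 5806 entries tested passed, 2269 of them higher, so the call itself is common. In bulk libraries, more RNA per cell and more cells with the RNA cannot be told apart.

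Footprint-sized fragments of MALAT1 and NEAT1 rose with QKI7 on the long-RNA scale. MALAT1 footprints were 2.11-fold and NEAT1 footprints 2.21-fold higher in QKI7 cells as deposited. On the long-RNA scale MALAT1 went from 215 ± 10.8 to 461 ± 30.0 rescaled TPM (SD, n = 2 each; log2 change 1.09, SE 0.0574, interval 0.95 to 1.23, adjusted p = 0.0013). NEAT1 went from 17.0 ± 1.94 to 38.2 ± 0.729 rescaled TPM (log2 change 1.13, SE 0.0972, interval 0.89 to 1.36, adjusted p = 0.00381). The background was 12% of entries called, 8.05% higher and 3.98% lower, and the median of all entries was 0.03. Leaving out 1 library kept both calls in 8 of 8 fits, with changes of 1.03 to 1.16 for MALAT1 and 1.02 to 1.24 for NEAT1. With log2(TPM + 1) on the deposited scale the change of NEAT1 was 0.18 and did not pass (adjusted p = 0.242); there the pseudocount of 1 exceeds its footprint levels of 0.11 to 0.27 TPM. KCNQ1OT1 stayed listed at 0 and gives no comparison.

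**Figure D3:**
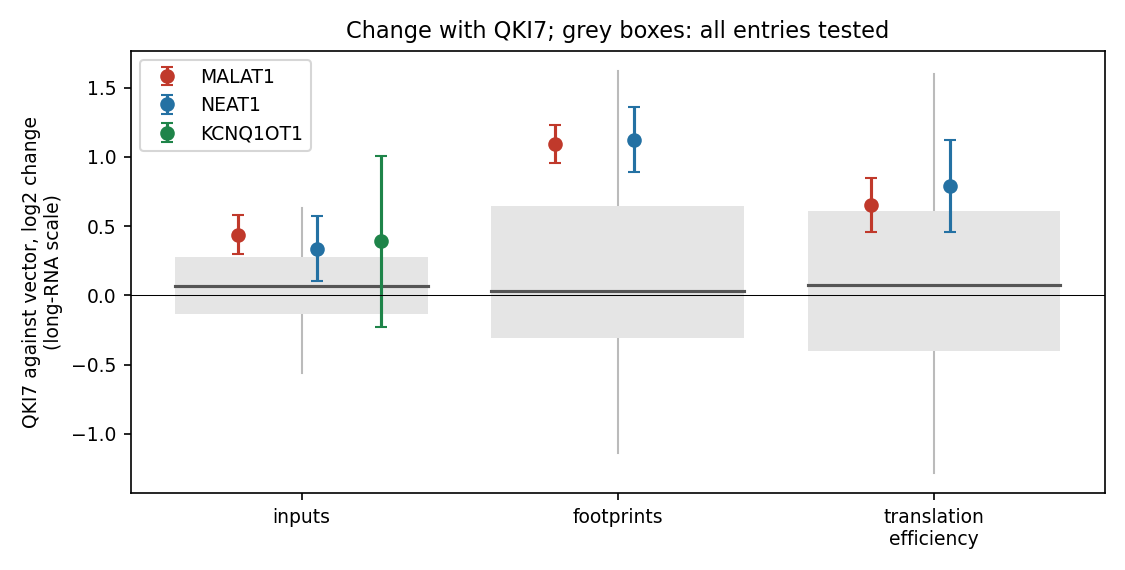
Log2 change with QKI7 on the long-RNA scale for MALAT1, NEAT1 and, in inputs, KCNQ1OT1 (points, with 95% confidence intervals from limma) against all 16677 entries tested (box: interquartile range; dark line: median; thin line: percentile 5 to percentile 95). MALAT1 and NEAT1 lie above the median of all entries in inputs, footprints and their difference, and furthest in footprints (1.09 and 1.13).

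The difference of these changes is what is called translation efficiency when applied to mRNAs; for RNAs that are not translated it is only the change of the footprint-to-input ratio. MALAT1 had a value of 0.65 (SE 0.0811, interval 0.46 to 0.85, limma adjusted p = 0.0277), and NEAT1 of 0.79 (SE 0.138, interval 0.46 to 1.12, adjusted p = 0.0575), which did not pass. KCNQ1OT1 gives no value, its footprints being at 0. Calls were made for 1.46% of entries, 1.18% higher and 0.282% lower, and the median was 0.08, so the relative changes were 0.58 and 0.71. Both intervals exclude 0; 76.5% of entries had a value at or below that of MALAT1 and 81.1% one at or below that of NEAT1. Without the pseudocount and relative to the median mRNA, the log2 ratio of MALAT1 was -3.97 ± 0.0936 in vector and -3.48 ± 0.0670 in QKI7 cells, and that of NEAT1 -3.12 ± 0.118 and -2.47 ± 0.00745 (SD, n = 2 each). Pairs were formed by replicate number alone, and these SDs depend on that match. The pairs of the 2 constructs did not overlap for either RNA. An exact two-sided permutation test of 2 against 2 gave p = 0.333, the smallest it can give. The MALAT1 call was lost when any of the 4 inputs was left out (adjusted p = 0.154 to 0.172) and kept when a footprint library was left out. On the deposited scale with a pseudocount of 1, MALAT1 was at 0.10 (adjusted p = 0.595) and NEAT1 at -0.34 (adjusted p = 0.0484), a reversed sign for NEAT1. There 1461 of the 5806 entries tested passed, 1254 of them lower. Quantile normalization gave 1.76 for MALAT1 (adjusted p = 0.000209) and 0.29 for NEAT1 (adjusted p = 0.296).

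**Figure D4:**
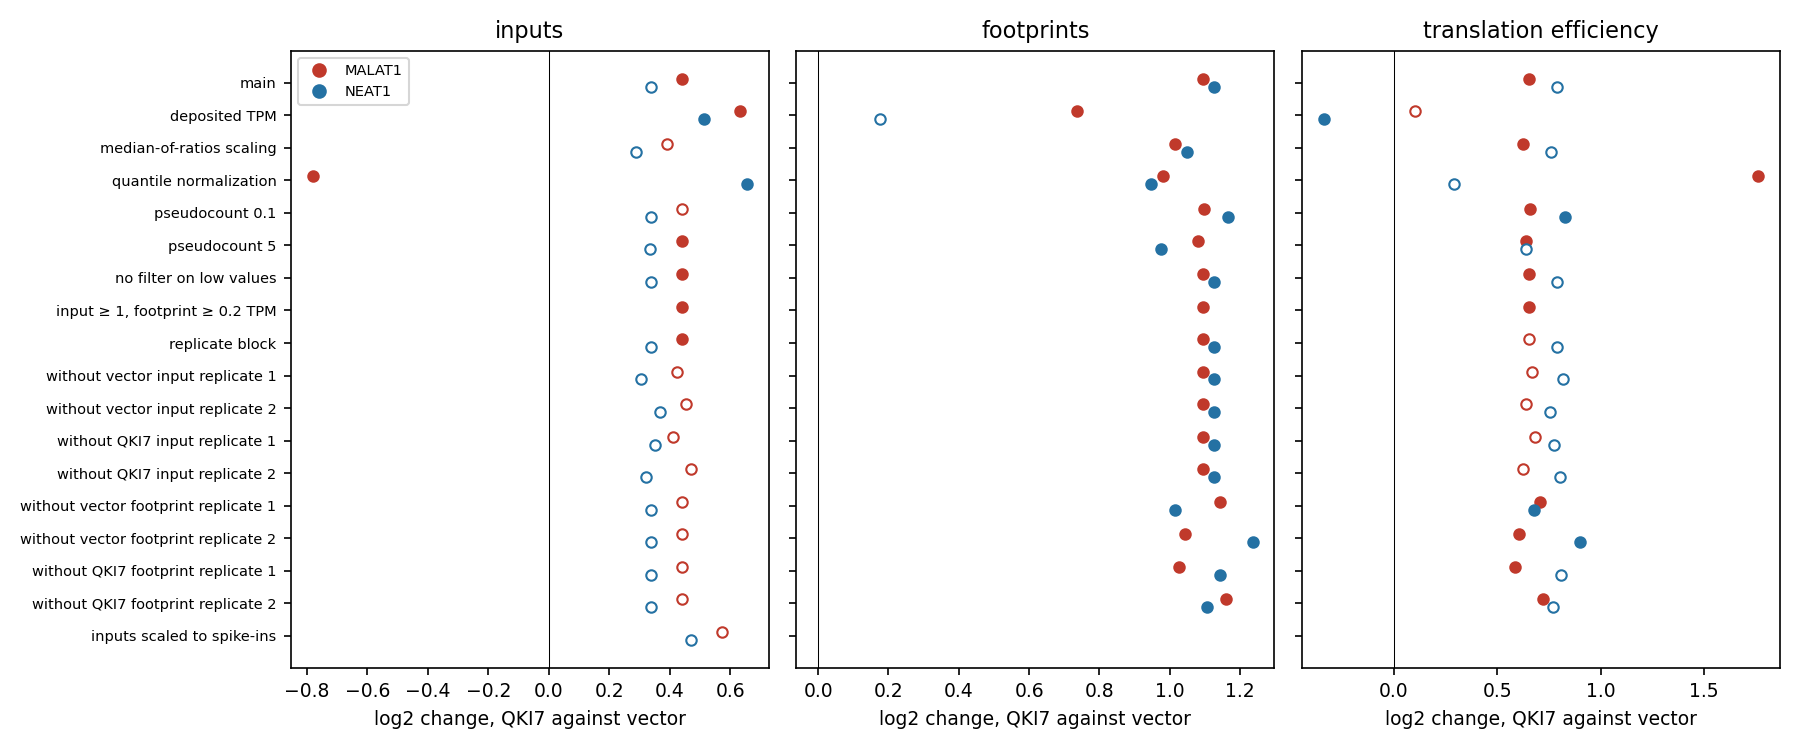
Log2 change with QKI7 of MALAT1 (red) and NEAT1 (blue) in inputs, footprints and translation efficiency under each processing setting; filled points have an adjusted p under the threshold of 0.05, open points do not. The footprint change stays near 1 except on the deposited scale (0.74 and 0.18), while quantile normalization moves MALAT1 to -0.78 in inputs and the deposited scale moves NEAT1 to -0.34 in translation efficiency.

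In inputs, no mRNA of the listed proteins that work with these RNAs passed the test. Only 0.594% of all entries passed there, so lists this short would hold few calls or none. In simulated data, 29.5% of changes of 1 on the log2 scale were called in this comparison. None of 15 paraspeckle proteins, 15 nuclear speckle proteins, 11 tested factors of RNase P, 3′ end processing and the triple helix, 9 nuclear RNA decay factors, 4 tested silencing partners of KCNQ1OT1, 5 tested genes of the KCNQ1OT1 imprinted domain or 9 genes next to MALAT1 and NEAT1 passed the test in inputs, with medians of -0.23 to 0.14 relative to all entries, where limma passed 99 entries overall and 1071 at an unadjusted p under the threshold. Of the other nuclear and the cytoplasmic long non-coding RNAs, 0 of 8 and 0 of 11 passed, with relative medians of 0.03 and -0.14. The translated reference mRNAs had 6 of 18 lower and 0 higher (relative median -0.32), led by CFL1, an actin-severing protein, and the elongation factor EEF2 (log2 changes -0.70 and -0.58, adjusted p = 0.00478 and 0.0146).

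In footprints, where 8.05% of all entries were higher and 3.98% lower, some mRNAs of these groups rose and others fell. The translated reference mRNAs had 12 of 18 lower and 2 higher, with a relative median of -0.32; the tubulin TUBA1B fell by 0.99 (adjusted p = 0.00826) and FLNA, an actin crosslinker, rose by 0.80 (adjusted p = 0.00332). Among paraspeckle proteins, DAZAP1, the chromatin remodeller SMARCA4 and the NEAT1-binding protein SFPQ rose by 0.81, 0.56 and 0.45 (adjusted p = 0.0112, 0.0331 and 0.0289) and HNRNPK fell by 0.37 (adjusted p = 0.0102). Among speckle proteins, LUC7L3 and the scaffold SRRM2 rose by 0.72 and 0.61 (adjusted p = 0.00262 and 0.00443) and the splicing factor SRSF1 fell by 0.42 (adjusted p = 0.0473). DNMT1, a DNA methyltransferase recruited in imprinted silencing, and PHLDA2, of the imprinted domain, rose by 0.76 and 1.12 (adjusted p = 0.0112 and 0.0477), as did the nuclear poly(A)-binding protein PABPN1 by 0.71 (adjusted p = 0.0347). Of the 9 genes beside MALAT1 and NEAT1, 3 rose: LTBP3, EHBP1L1 and MAP3K11, by 2.27, 1.15 and 0.82 (adjusted p = 0.00699, 0.00348 and 0.0153). LTBP3 rested on 0.0150 TPM in vector and 0.0950 TPM in QKI7 footprints, near the rounding of the table. The 3′ end and triple helix factors had 0 of 11 called. Other nuclear long non-coding RNAs had 0 of 8 called, with a relative median of 0.35, and TUG1 stood at a mean of 0.0750 TPM in vector and 0.125 TPM in QKI7 footprints. By contrast, GAS5 and ZFAS1, cytoplasmic snoRNA host transcripts, fell in footprints by 1.06 and 1.23 (adjusted p = 0.00348 and 0.00575), with inputs of 6.77 and 6.86 TPM for GAS5. Its translation efficiency value was -0.89 (adjusted p = 0.0348), of opposite sign to that of MALAT1; the difference between the RNAs was not tested.

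The entries whose pattern over the 8 libraries was nearest to each RNA, by Euclidean distance between centred log2 values, mostly had far lower footprints than inputs. For MALAT1 they were HRNR, BDP1, SMG1, POTEM and ANKRD18A, at distances of 0.71 to 0.95 against a median of 5.40 over 5421 entries. POTEM, which has near-identical copies and is uncertain for that reason, had inputs of 43.29, 47.78, 74.68 and 67.72 TPM and footprints of 0.05 to 0.25 TPM. BDP1, a subunit of the RNA polymerase III factor TFIIIB, went from 20.7 and 23.48 TPM in vector inputs to 0.04 and 0.06 TPM in vector footprints. For NEAT1 they included CCDC88A, TICRR, SRRM2 and CHD1, at distances of 0.40 to 0.56 against a median of 4.10. SRRM2 stood at 80.88, 87.87, 114.69 and 106.14 TPM in inputs and at 0.44, 0.48, 0.69 and 0.70 TPM in footprints, with higher values in QKI7 libraries throughout, as for NEAT1. For KCNQ1OT1 they were RPGRIP1L, LOC105376575, RPS6KA5, ZFPM2 and SLC4A8, at 0.13 to 0.16 against a median of 2.46 over 16676 entries, with footprints of at most 0.02 TPM. Likeness in 8 libraries of 4 groups is a description and carries no test.

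The change of the ratio with QKI7 can be read beside that of abundant mRNAs. For MALAT1 and NEAT1 the log2 ratio without a pseudocount rose by 0.66 and 0.83 between the constructs on the long-RNA scale, against a median of 0.24 over 699 mRNAs with inputs of at least 10 TPM. Of these mRNAs, 502 were above 0.

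**Figure D5:**
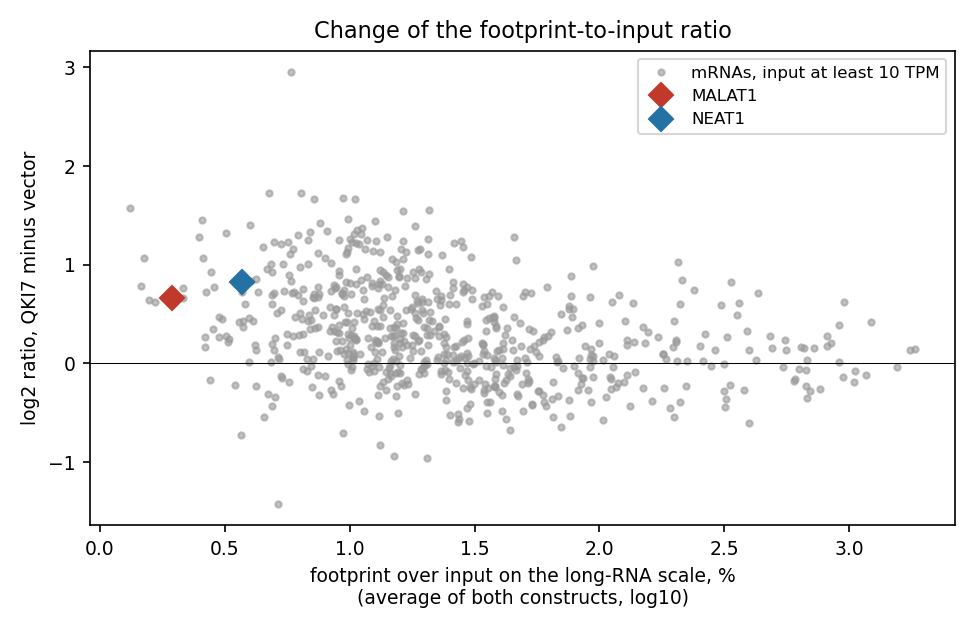
Change of the footprint-to-input ratio with QKI7 (log2, QKI7 minus vector) against its average over both constructs in percent (log10 axis, long-RNA scale) for 699 mRNAs with inputs of at least 10 TPM (grey), MALAT1 and NEAT1 (diamonds). MALAT1 (0.66) and NEAT1 (0.83) lie at the left, among mRNAs of low ratio whose change was mostly above 0.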

How the data were processed

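The authors deposited 1 table of TPM for 8 libraries, computed over all RNA classes; STAR, RSEM 1.2.31 and GRCh38 are named per the submitters' processing notes, with their settings not given in the sources used here. Per the labels, libraries were read as single 51-base reads. Entries were matched to RefSeq (GRCh38.p14): 23970 by symbol, 1395 by an older symbol, 1537 not. For the long-RNA scale 2598 entries (spike-ins, histone genes, small and ribosomal RNA) were removed and each library rescaled to 1000000. limma 3.58.1 in R 4.3.3 (lmFit, eBayes with trend) was fitted to log2(value + 1) of the 16677 entries averaging 1 or more, with 4 group means over 8 libraries; p-values are two-sided, Benjamini-Hochberg adjusted over all entries, with a threshold of 0.05. Fold changes on this scale understate low values. Genes named beside the 3 RNAs are, per list, up to 4 past the threshold by size, and the 5 nearest patterns per RNA, of which 1 is not reported here. The genes and lists were chosen with earlier results of these data known. On simulated data with 200 changed entries of about 1 TPM or more among 16677, median estimates were 0.51, 1.00 and 2.01 for input changes of 0.5, 1 and 2, and 0%, 29.5% and 81.5% were called. For footprints 0.5%, 39% and 79.5% were called, and for translation efficiency 0%, 6% and 62%. Of the calls at changes of 1 and 2, 13.3% and 7.02% were false in footprints. These shares were 3.28% and 4.12% in inputs and 0% and 3.1% in translation efficiency. Same-numbered libraries did not deviate together (correlations -0.02 to 0.02 between groups), so numbers were not treated as pairs in the tests. RPP21, CDKN1C, NAP1L4 and EHMT2 of the lists were not analysed here.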

Additional observations from a re-analysis of the deposited data

Results flagged for a closer look

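MALAT1 differed between the constructs in its footprint-to-input ratio: the log2 ratio was 0.65 higher in QKI7 than in vector cells by the interaction test (limma adjusted p = 0.0277). Both QKI7 pairs lay above both vector pairs, for which an exact permutation test of 2 against 2 gave p = 0.333. The call was lost in 4 of 8 fits that left out 1 library, each of them an input (adjusted p up to 0.172), and on the deposited scale (0.10, adjusted p = 0.595). QKI, the overexpressed gene, differed the other way, by -3.30 (limma adjusted p = 0.000211), with a footprint-to-input log2 change of 0.17 in vector and -3.13 in QKI7 cells.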

How the results depend on the processing

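MALAT1 and NEAT1 stayed lower in footprints than inputs, with a passing test, under each alternative in which they were tested, and without any 1 library (MALAT1 -6.05 to -5.95 in vector and -5.42 to -5.28 in QKI7 cells, NEAT1 -5.20 to -4.98 and -4.32 to -4.28). Quantile normalization gave MALAT1 -0.78 in inputs; it assigns values by rank, and MALAT1 ranked 1 in vector and 2 in QKI7 inputs. MALAT1 in inputs lost its call at 0.39 with median-of-ratios scaling, at 0.44 with pseudocount 0.1 (adjusted p = 0.0719) and at 0.57 with inputs scaled to spike-ins (chosen with the data seen); without 1 library it was 0.41 to 0.47, NEAT1 0.31 to 0.37 and KCNQ1OT1 0.35 to 0.43. NEAT1 in inputs gained a call at 0.51 on the deposited scale and 0.66 with quantile normalization. In footprints NEAT1 lost its call at 0.18 on the deposited scale; without 1 library the ranges were 1.03 to 1.16 (MALAT1) and 1.02 to 1.24 (NEAT1). In translation efficiency MALAT1 lost its call at 0.10 on the deposited scale, and NEAT1 went to -0.34 there and to a call at 0.83 with pseudocount 0.1; without 1 library the ranges were 0.59 to 0.72 and 0.68 to 0.90. With a replicate block, MALAT1 kept 0.65 without a call (adjusted p = 0.130), and counts were 61 in inputs, 1112 in footprints and 5 in translation efficiency; the block leaves fewer degrees of freedom and ended no call of MALAT1 or NEAT1 in the other comparisons. The percentile among mRNAs was 0.0373 for MALAT1 in each construct and 0.112 and 0.186 for NEAT1 when footprints of at least 0.2 TPM were asked of mRNAs, and 1.28 (MALAT1, vector), 3.84 and 6.68 (NEAT1) at inputs of at least 10 TPM; within single pairs it was 2.97 to 3.0 and 1.97 to 2.19 for MALAT1 and 3.84 to 4.35 and 5.08 to 5.13 for NEAT1. The deposited scale tests 5806 entries in place of 16677, so its counts cannot be set directly beside the main ones. Counts of called entries on it were 5667 and 5703 for footprint against input in vector and QKI7 cells, 2587 in inputs, 476 in footprints and 1461 in translation efficiency. With inputs of at least 1 and footprints of at least 0.2 TPM, which tests 2794 entries and leaves out NEAT1 and KCNQ1OT1, they were 2193, 2125, 248 and 974 for the first 4. Quantile normalization gave 167 in inputs and 1195 in footprints, spike-in scaling 7 in inputs and pseudocount 0.1 gave 816 in translation efficiency. The split of input calls, 8 higher and 91 lower, was 2269 and 318 on the deposited scale, 44 and 123 with quantile normalization and 3 and 4 with spike-ins, where the median of all entries was 0.15, 0.01 and 0.19 against 0.07. That of footprint calls, 1342 and 664, was 209 and 267 on the deposited scale, and that of translation efficiency, 197 and 47, was 207 and 1254. For footprint against input, 1949 and 10049 in vector cells became 3992 and 4621 with quantile normalization, which moved the median from -1.60 to -0.09, and 1852 and 9781 in QKI7 cells became 3868 and 4539. The causes were not tested. Without 1 library counts ran from 2 to 67 in inputs, 587 to 2734 in footprints, 3 to 820 in translation efficiency, 9721 to 12599 and 9207 to 12211 for footprint against input. Of 943 refits of 60 further gene results, 798 kept direction and side of the threshold, 141 lost and 2 gained a call and 2 turned, both on the deposited scale: QKI in vector footprints against input (-1.39) and LINC00152 in QKI7 cells (-0.082).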

Other observations

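The change of the footprint-to-input ratio with QKI7 followed the level of that ratio among mRNAs, and MALAT1 and NEAT1 lay within the mRNAs of the lowest ratios. The 699 mRNAs with inputs of at least 10 TPM and footprints above 0 in both constructs, QKI left out, were divided into 4 equal bins by their mean ratio, without a pseudocount and on the long-RNA scale. In the lowest bin (ratios of 1.32% to 9.94%) the median log2 change of the ratio was 0.51, with 150 of 175 mRNAs above 0. It was 0.36 in the second, 0.13 in the third and 0.05 in the highest bin, where 101 of 175 were above 0. MALAT1, at an average ratio of 1.95%, changed by 0.66, above 57.7% of the lowest bin, and NEAT1, at 3.72%, by 0.83, above 74.3% of it. The change of these untranslated RNAs was thus of the size seen in mRNAs with similarly low footprint-to-input ratios, and larger than that of 75.3% and 85.0% of all 699. The bins were chosen after the data were seen, share the libraries that gave the change, and carry no test. A plot of the change against the ratio shows the same.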
